A study of Mus musculus with 6 samples.

Results

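Coding sequence lying far from any transcription start was examined in the dentate gyrus, the part of the hippocampus that holds the granule neurons. A coding site was an autosomal cytosine with a methylation value that fell inside a coding (CDS) record of a protein-coding gene in GENCODE M21 and was over 3000 bp from the start of every annotated transcript. Positions alone chose the sites, and no methylation value was used. Of 890041 measured cytosines, 20202 (2.27%) met this definition, which is 16.5% of the 122482 autosomal coding cytosines. They belonged to 17912 CpGs on 19 autosomes, of which 2290 CpGs were measured on both strands, and all were CpGs in the mm10 reference. They lay in 3154 genes. The median gene held 4 coding sites, 546 genes held a single site, 1327 held at least 5 and 545 held at least 10. The median distance to a start was 7836.5 bp.

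The 6 libraries came from female C57BL/6JRj mice aged 4.5 months and were made by RRBS, reduced representation bisulfite sequencing, which reads fragments cut at CCGG after bisulfite has converted unmethylated cytosines. Enriched mice (ENR, n = 3) had lived in a large enclosure with rearranged toys, and standard mice (STD, n = 3) in ordinary cages. All were unmodified animals of the same strain, and each library came from micro-dissected tissue of a single mouse, which holds glia and vessels beside granule neurons. Enriched mice of an experiment shared their enclosure, so enclosure and enrichment cannot be told apart. Values are percentages of reads with a methylated cytosine. Read numbers were not used here, so counting error is unknown beyond the authors' minimum of 10 reads per site. Methylation at CpGs does not by itself identify a cell type, and the tissue label could not be checked against expression markers.

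CpG methylation is placed by DNA methyltransferases on both strands of the CG dinucleotide. Most CpGs of the mammalian genome are methylated, and those of transcribed gene bodies are usually among them, whereas CpG islands, stretches that have kept a high density of CpGs, are mostly free of methylation and commonly sit at promoters. Islands inside genes also exist, so that a coding exon far from a start may belong to either kind of sequence. Because methylated cytosines mutate readily to thymine, CpG-poor sequence is typical of regions methylated in the germ line.

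Coding stretches of both kinds are shown first because the level of a site differed with the sequence around it. Each window is 120 bp of mm10 coding sequence read on the coding strand from 5′ to 3′, and capitals mark the CpGs with a value in all 6 libraries. The first 4 windows are crowded with CpGs and were hardly methylated: Zfp771 at chr7:127254183-127254302 (plus strand, mean level 0.588%), Tbx2 at chr11:85837269-85837388 (plus strand, 6.69%), Trim14 at chr4:46507255-46507374 (minus strand, 0.254%) and a dense exon of Ryr1 at chr7:29019853-29019972 (minus strand, 1.94%). A CpG-poor exon of the same Ryr1 gene at chr7:29015730-29015849 (minus strand) had a level of 88.4%. Pard6b at chr2:168098527-168098646 (plus strand, 93.6%) was dense and yet methylated. Zfp334 at chr2:165380946-165381065 (minus strand, 98.6%) and Ttn at chr2:76726201-76726320 (minus strand, 95.1%) were methylated at intermediate density. Pik3r1 at chr13:101757330-101757449 (minus strand, 41.4%) is shown for its difference between housing groups.
Zfp771: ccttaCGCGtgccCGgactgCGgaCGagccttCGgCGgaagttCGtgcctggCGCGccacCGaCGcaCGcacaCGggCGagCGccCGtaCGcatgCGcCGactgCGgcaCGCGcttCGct
Tbx2: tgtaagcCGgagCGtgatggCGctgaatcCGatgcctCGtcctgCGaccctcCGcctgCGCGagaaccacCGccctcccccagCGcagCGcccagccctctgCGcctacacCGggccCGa
Trim14: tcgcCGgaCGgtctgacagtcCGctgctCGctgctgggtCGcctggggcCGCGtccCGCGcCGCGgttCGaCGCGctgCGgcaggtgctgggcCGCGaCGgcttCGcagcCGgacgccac
Ryr1 dense exon: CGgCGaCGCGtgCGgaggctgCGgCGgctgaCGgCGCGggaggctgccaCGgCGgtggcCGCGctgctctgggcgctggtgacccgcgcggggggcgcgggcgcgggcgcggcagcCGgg
Ryr1 sparse exon: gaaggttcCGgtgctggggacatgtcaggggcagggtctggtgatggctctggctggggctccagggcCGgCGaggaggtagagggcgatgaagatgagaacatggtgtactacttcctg
Pard6b: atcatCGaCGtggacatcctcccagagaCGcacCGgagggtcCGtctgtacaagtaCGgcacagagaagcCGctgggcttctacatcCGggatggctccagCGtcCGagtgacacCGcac
Zfp334: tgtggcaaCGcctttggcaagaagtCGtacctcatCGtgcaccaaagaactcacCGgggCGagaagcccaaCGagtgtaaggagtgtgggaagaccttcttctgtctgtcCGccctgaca
Ttn: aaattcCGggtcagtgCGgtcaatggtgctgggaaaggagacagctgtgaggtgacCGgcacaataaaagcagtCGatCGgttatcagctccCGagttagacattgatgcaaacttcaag
Pik3r1: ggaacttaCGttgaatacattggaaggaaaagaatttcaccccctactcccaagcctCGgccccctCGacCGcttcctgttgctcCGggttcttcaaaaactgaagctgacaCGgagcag
The Zfp771 window holds 24 CpGs, all measured, and the Ryr1 sparse exon holds 4, of which 3 were measured. In the dense Ryr1 exon 15 of 25 CpGs were measured. Almost all coding sites lay within 75 bp of a CCGG.

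The mean level of far coding sites was 54.9% ± 1.68 in the STD group and 54.0% ± 2.73 in the ENR group (SD, n = 3 each). The STD libraries had means of 56.1%, 55.5% and 52.9%, and the ENR libraries 55.6%, 55.6% and 50.9%, in the order of their replicate numbers. The groups overlapped, and the library numbered 3 was the lowest of each. The mean hid a split into extremes. Over the 6 libraries, 31.7% ± 2.66 (SD) of the coding sites were under 20%, 41.1% ± 2.19 (SD) were over 80%, and 27.1% ± 0.536 (SD) lay between. At 1251 sites all libraries read 0%, and at 791 all read 100%.

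The first question was how the level of these sites varied with the crowding of measured cytosines around them. Density was the number of other measured cytosines within 200 bp on either strand. Sites with at most 5 such neighbours are called sparse (8759 sites) and sites with at least 21 dense (2666 sites). Sparse sites had a mean level of 70.1% ± 2.99 (SD, n = 6) and dense sites 12.4% ± 0.744 (SD, n = 6). The difference of 57.7 ± 2.28 percentage points (SD, n = 6) had the same sign in 6 of 6 libraries (two-sided exact sign-flip permutation test within libraries, p = 0.03125, the smallest that 6 libraries allow). Adjusted over the 13 comparisons of this kind, p stayed at 0.03125. Each of the 13 stood at this smallest value, so adjustment could not move them. Comparisons within the same gene and density class were not among the 13. All libraries read the same sites, so the sign-flip test concerns the mice and not the choice of genes. When each gene counted equally, an alternative added after the data were seen, the difference was 50.8 percentage points.

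The level fell from class to class without an exception in any library. Sites with 0 to 2 neighbours (3490 sites in 1649 genes) had means of 75%, 74.0% and 70.4% in the STD libraries and 74.2%, 73.9% and 66.5% in the ENR libraries. With 3 to 5 neighbours (5269 sites) the 6 libraries spanned 63.9% to 70.7%, and with 6 to 10 neighbours (4776 sites) 59.0% to 64.3%. These first steps were small, 3.75 and then 6.06 percentage points on average. A steep fall followed between 6 to 10 and 11 to 20 neighbours. The class of 11 to 20 neighbours (4001 sites in 335 genes) stood at 39.4%, 38.9% and 37.6% in STD and at 39.1%, 39.6% and 36.9% in ENR, which was 23.9 ± 0.995 percentage points (SD, n = 6) below the class before. Sites with 21 to 40 neighbours (2252 sites in 114 genes) were between 13.0% and 15.1%, a further fall of 24.3 percentage points. Sites with over 40 neighbours (414 sites in 14 genes) were between 1.79% and 2.26%. Each of the 5 steps, comparisons added after the data were seen, had the same sign in all 6 libraries (exact sign-flip permutation p = 0.03125 each, adjusted p = 0.03125). Zfp771 alone gave 86 of the 414 sites in the densest class, and without it the class stood at 2.35%.

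**Figure D1:**
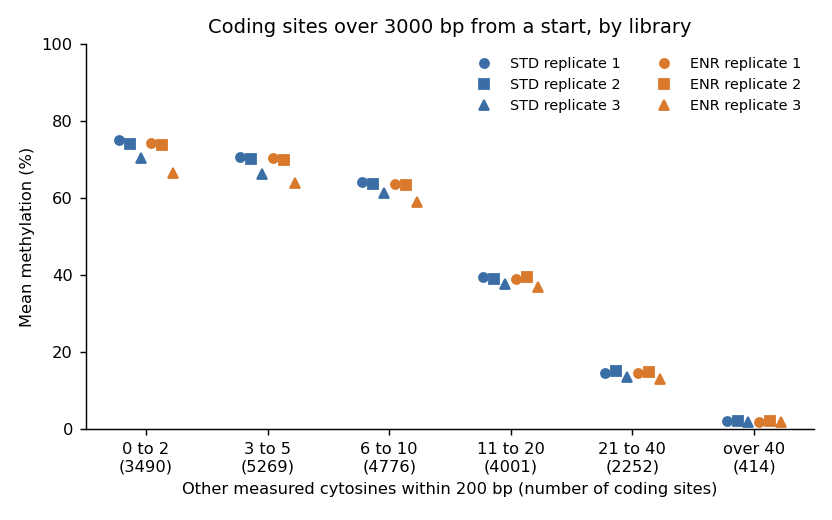
Mean methylation in percent (vertical axis) of coding sites over 3000 bp from a start, by the number of other measured cytosines within 200 bp (horizontal axis, number of sites in brackets). Each point is 1 library, blue for STD and orange for ENR, with a marker for each replicate number. All 6 libraries fall from between 66.5% and 75% at 0 to 2 neighbours to between 1.79% and 2.26% at over 40, and STD and ENR points overlap in every class.

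Low and high sites changed places along the classes, and intermediate sites did not become more frequent. With 0 to 2 neighbours, 56.7% of the sites were over 80% and 9.40% under 20%. With 11 to 20 neighbours these shares were 27.0% and 49.99%, and with 21 to 40 neighbours 4.75% and 79.8%. In the densest class 100% of the sites were under 20%. Intermediate sites made up 33.9% of the first class and 15.5% of the class of 21 to 40 neighbours.

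**Figure D2:**
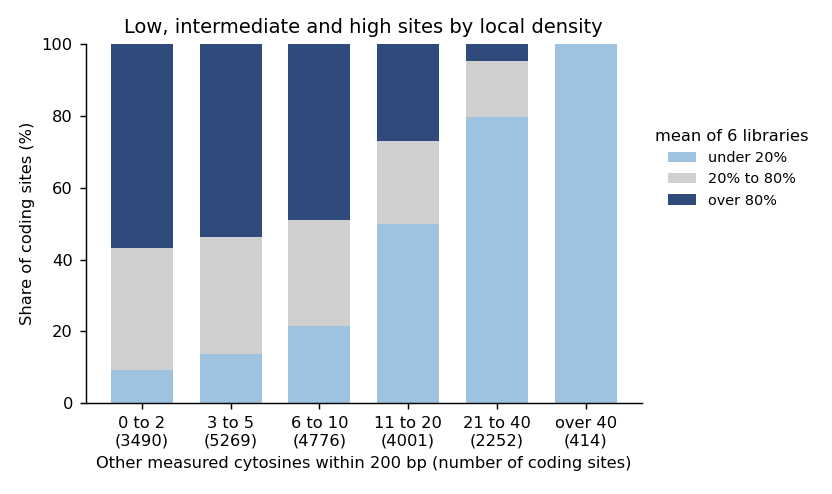
Share of coding sites in percent (vertical axis) with a 6-library mean under 20% (light blue), from 20% to 80% (grey) and over 80% (dark blue), by the number of other measured cytosines within 200 bp (horizontal axis, number of sites in brackets). The share over 80% falls from 56.7% to 0% and the share under 20% rises from 9.40% to 100%.

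Row density tracked the sequence itself. The mean number of reference CpGs within 200 bp was 8.79 in the sparsest class and 56.2 in the densest, and the share of G and C within 100 bp of a site was 53.3% and 73.0%. A site was counted as island-like when G and C made up 50% or more of that stretch and its CpGs reached 0.6 of the number expected from its base composition. This local criterion was met by 7.28% of the sites with 0 to 2 neighbours, 36.7% with 6 to 10, 74.2% with 11 to 20, 96.8% with 21 to 40 and 100% with over 40. Counting reference CpGs in place of measured cytosines gave a sparse minus dense difference of 60.3 percentage points. Starts missing from GENCODE were checked in RefSeq. Of the dense sites, 291 (10.9%) lay within 3000 bp of a RefSeq transcript start, against 533 (6.09%) of the sparse sites, and the former had a level of 5.30%. With those sites left out, dense sites stood at 13.3% and the difference was 56.8 percentage points.

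Within single genes the same contrast was smaller. At least 2 sparse and 2 dense coding sites were found in 29 genes. The mean over genes was 44.4% for sparse and 26.5% for dense sites, a difference of 17.9 ± 2.52 percentage points (SD, n = 6), positive in 6 of 6 libraries (exact sign-flip permutation p = 0.03125, adjusted p = 0.03125). Sparse sites were the higher in 20 of the 29 genes and the lower in 9, with a median difference of 16.4 percentage points. Only 8 genes had at least 5 sites of each kind, and in 3 of them sparse sites were the lower. Over such genes the mean difference was 13.2 percentage points. Among them Tbxa2r, which encodes the thromboxane A2 receptor, had the largest difference, 82.3% at 6 sparse and 16.6% at 25 dense sites. In Ryr1, the ryanodine receptor of skeletal muscle, 14 sparse sites averaged 57.2% and 60 dense sites 3.33%. Its stretch of 61 sites at chr7:29019500-29020121 read 5.12%, 2.69% and 3.17% in STD and 2.22%, 4.86% and 3.23% in ENR, whereas 13 sites at chr7:29093896-29094134 read 79.0%, 84.3% and 76.2% in STD and 86.3%, 74.4% and 75.5% in ENR. Exons of 1 gene thus stood far apart in every mouse. Evpl (envoplakin, a protein of the epidermal cornified envelope) had 51.1% and 15.8%, and Fbxo41 (an F-box protein) 43.7% and 8.44%, at sparse and dense sites. The order was the other way in Zfp64, a zinc finger gene, with 56.8% at 5 sparse and 93.1% at 5 dense sites. Magi1, a scaffold protein of cell junctions, also had the lower level at sparse sites, 57.6% at 5 sparse and 84.9% at 11 dense sites.

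Far coding sites were then set against other genic sequence with the density classes weighted alike. At matched density they were 14.02 ± 0.481 percentage points (SD, n = 6) above intron sites over 3000 bp from a start (84211 sites), with means of 54.4% and 40.4%. They were 16.0 ± 0.280 percentage points above untranslated exon sites equally far from starts (5355 sites, 38.5%). The gap to coding sites within 3000 bp of a start (102280 sites, 29.2%) was 25.2 ± 0.719 percentage points. Each difference was positive in 6 of 6 libraries (exact sign-flip permutation p = 0.03125, adjusted p = 0.03125). Without matching, the difference was 3.55 percentage points from introns, 8.99 from untranslated exons and 43.3 from near-start coding sites. The median far intron site had 3 neighbours and the median far coding site 7. In an alternative added after the data were seen, coding and intron sites were paired within the same gene and the same density class. Over 1566 such combinations coding sites stood at 65.3% and intron sites at 54.2%, a difference of 11.05 ± 0.768 percentage points (SD, n = 6; exact sign-flip permutation p = 0.03125).

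The gap depended on density. With 0 to 2 neighbours far coding sites had 72.3% and far introns 58.9%, with 6 to 10 neighbours 62.5% and 43.2%, and with 21 to 40 neighbours 14.3% and 7.81%. In the densest class the values were 2.06% and 2.03%, with SDs over libraries of 0.186 and 0.546 percentage points. Introns also met the island-like criterion less often in the same class, 17.4% against 36.7% of sites with 6 to 10 neighbours. Near-start coding sites met it more often, 58.3% in that class. The part of these differences in the levels was not tested.

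**Figure D3:**
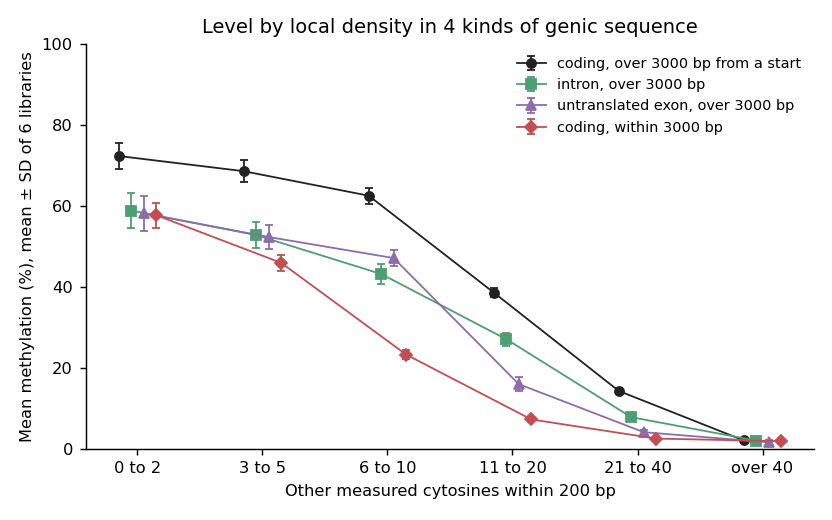
Mean methylation in percent (vertical axis, mean ± SD of 6 libraries) by the number of other measured cytosines within 200 bp (horizontal axis), for coding sites over 3000 bp from a start (black), introns (green) and untranslated exons (purple) equally far, and coding sites within 3000 bp of a start (red). The far coding sites are the highest in the first 5 classes, for example 62.5% against 43.2%, 47.1% and 23.3% at 6 to 10 neighbours, and all 4 kinds lie between 1.60% and 2.06% at over 40.

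Distance from the start set the members, and the level changed across the limit. Coding sites from 2500 to 3000 bp, just outside, had 36.5% and a median of 12 neighbours, and sites from 3000 to 3500 bp, just inside, had 46.5% and a median of 8 neighbours. Further out the level was 44.0% from 3500 to 5000 bp, 52.9% from 5000 to 10000 bp, 61.2% from 10000 to 20000 bp, 64.8% from 20000 to 50000 bp and 60.8% beyond, so that it did not rise at every step. Among sparse sites the values in the 6 bins from 3000 bp outward lay between 67.2% and 72.9% in no steady order. Dense sites lay between 6.23% and 24.3%, also in no steady order. Sites neither sparse nor dense did differ with distance. In the same 6 bins they had 38.9%, 38.7%, 52.8%, 58.8%, 61.8% and 66.4%. Over all densities, the median number of neighbours ran from 8 just inside the limit to 5 from 20000 to 50000 bp and 6 beyond. These values are descriptions and were not tested.

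The 3 codon positions differed by a few percentage points. Codon position was that of the CpG's cytosine on the coding strand, whichever strand was measured. CpGs at the first base of a codon had a density-weighted level of 56.4%, the second 52.3% and the third 54.5%. The second position was below the third by 2.17 ± 0.405 percentage points (SD, n = 6) in 6 of 6 libraries (exact sign-flip permutation p = 0.03125, adjusted p = 0.03125). Within the same gene and density class, an alternative added after the data were seen, the difference was 0.132 percentage points in the opposite direction and positive in 4 of 6 libraries (exact sign-flip permutation p = 0.3125). The first position was above the second by 4.09 percentage points and above the third by 1.91, comparisons added after the data were seen.

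Neighbouring coding sites were alike. For the 2290 CpGs with both strands measured, the median difference between strands was 3.25 percentage points, 84.8% of the pairs lay within 10 points and 43 pairs differed by over 25. Sites of a gene with gaps of at most 200 bp formed 4327 runs, of which 1339 held at least 5 sites. All sites of the run were under 20% in 216 of these, and all were over 80% in 398. Only 42 runs (3.14%) held sites of both kinds. The SD between run means was 36.6 percentage points, and the median SD within a run was 6.34. Of 160 genes with at least 2 such runs, 91 had run means within 20 points of each other and 31 had run means over 50 points apart, with a median range of 14.3 points. In most of these genes the runs were thus alike. Ttn had 14 runs of at least 3 sites, all between 91.1% and 98.6%. Others held runs far apart. Runx1, a blood transcription factor, had a run of 21 sites at 7.37% and another of 10 sites at 98.0%. Rims1, a scaffold of the presynaptic active zone, had 87 sites at 3.93% and 3 others at 98.3%. Dsp (desmoplakin) had 5 sites at 30.9% and 16 sites at 97.4%.

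Among the 1327 genes with at least 5 sites, 251 averaged under 20%, 559 over 80% and 517 between. The gene with the lowest mean among those with at least 10 sites was Trim14, a regulator of innate antiviral signalling. Its 31 sites read 0% in each STD library and 0.523%, 1.00% and 0% in the ENR libraries. Vsig8 (0.584%), Baiap2l2 (0.658%), Pura (0.812%), Gipr (0.816%) and Synpo (0.976%) followed, and each gene's libraries lay within 3 percentage points. Gipr is the receptor of the gut hormone GIP, and Synpo encodes the actin-binding protein synaptopodin of dendritic spines. The low genes were thus not of a single function. Sites of Pura had 24 to 35 neighbours and sites of Baiap2l2 15.

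The genes with the most coding sites stood at both ends. Ttn, which encodes the giant sarcomere protein titin, had 122 sites and read 95.6%, 94.4% and 94.9% in STD and 95.6%, 96.2% and 93.2% in ENR. Zfp771, with 105 sites, read 1.02%, 1.12% and 1.14% in STD and 1.11%, 0.853% and 1.29% in ENR. Rims1 (90 sites, 7.08%) and the T-box factor Tbx2 (87 sites, 5.96%) were low, and Ryr1 (88 sites, 23.3%) was mixed. Among genes with at least 10 sites, the highest means belonged to Zfp157 (99.1%), Zfp334 (98.4%) and D630045J12Rik (98.4%). In these 3 genes every coding site had a 6-library mean over 93%.

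Gene groups are given with their level and density, as descriptions without a test. Developmental transcription factors (491 sites in 39 of 95 listed genes) had 24.7% ± 1.08 (SD, n = 6), with a mean of 17.3 neighbours. Of their 19 genes with at least 5 sites, 10 averaged under 20% and 4 over 80%. Prdm13, which directs spinal and retinal interneuron fate, had 1.86% at 71 sites, and Lhx5, a LIM homeobox factor of the forebrain, 2.97% at 52 sites. At their dense sites these factors had 4.22% and at their sparse sites 63.1%.

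Genes of the glutamatergic synapse (233 sites in 17 of 37 genes) had 26.4% ± 2.29 (SD, n = 6) and a mean of 16.8 neighbours. Of their 10 genes with at least 5 sites, 5 averaged under 20%, 3 between and 2 over 80%, and their sparse sites had 51.0% and their dense sites 11.6%. Grin2c, an NMDA receptor subunit, read 7.39%, 7.04% and 5.95% in STD and 6.09%, 7.42% and 5.21% in ENR over 64 sites. Shank1 (15.7%) and Shank3 (14.9%), both postsynaptic scaffolds, were also low. Dlgap1, which links such scaffolds, varied widely between mice, with 23.5%, 24.2% and 6.13% in STD and 41.3%, 21.5% and 11.4% in ENR over 24 sites within 143 bp. Its groups overlapped. Voltage-gated calcium channel subunits (105 sites in 12 of 23 genes) had 38.03% ± 2.26 (SD, n = 6), with Cacng8 at 5.59%, Cacna1a at 21.4%, Cacng7 at 34.5% and Cacna1i at 61.6%.

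Collagens and other structural genes had higher means. Collagens (210 sites in 32 of 40 genes) had 79.7% ± 1.83 (SD, n = 6) and a mean of 4.82 neighbours. None of their 18 genes with at least 5 sites averaged under 20% and 10 averaged over 80%, among them Col8a1 at 89.6% and Col6a6 at 87.8%. Col4a2, a chain of basement membranes, had 61.2% and ran from 24.98% in a stretch of 4 sites to 97.5% in another of 3. Laminins and other matrix glycoproteins (138 sites) had 75.1%. Of their 9 genes with at least 5 sites, 4 averaged over 80%, 4 between and 1, Ncan (neurocan), under 20%. Fn1 (fibronectin) stood at 96.2%, Hspg2 (perlecan) at 81.8%, Fbn2 (a fibrillin) at 73.6% and Acan (aggrecan) at 67.6%. Atypical cadherins (85 sites) had 77.5%, 4 of 6 such genes averaging between 20% and 80%, with Fat1 at 96.2% and Celsr2 at 56.0%. Celsr2 libraries spread from 37.9% to 68.4% across both groups.

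Cell type markers gave few coding sites. Of 8 granule neuron markers 2 had any, Dsp with 83.3% over 24 sites and Prox1, the granule cell homeobox factor, with 13.2% at its single site. Of 36 markers of other cells 14 had sites, with a mean of 68.9%, among them Pecam1 of endothelium at 95.5%, Slc1a2 of astrocytes at 90.05%, Mag of oligodendrocytes at 79.0% and Tmem119 of microglia at 74.5%. Levels were lower at 5 of the 14, with Sox10 of oligodendrocyte lineage cells at 25.2%, Gad1 of inhibitory neurons at 27.0%, Trem2 of microglia at 17.8% at a single site, Gfap of astrocytes at 15.6% at 2 sites and the glial factor Sox9 at 9.67%. Enzymes and readers of DNA methylation had 15 sites in 4 of 13 genes. Tet2 had 96.0% at 4 sites, and 5 sites of Tet3 read 42.8%, 45.01% and 14.2% in STD and 49.6%, 31.6% and 1.38% in ENR. Both libraries numbered 3 were thus the lowest at Tet3. Of 10 genes discussed in the study, some of them chosen there on these mice and some on other cohorts, 4 had far coding sites. Cux2 stood at 95.3%, Gria1 at 90.1%, Ntf3 at 89.2% and Tiam1, a Rac exchange factor, at 13.8% with STD replicate 1 at 36.5% and the other libraries between 5.23% and 20.7%.

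**Figure D4:**
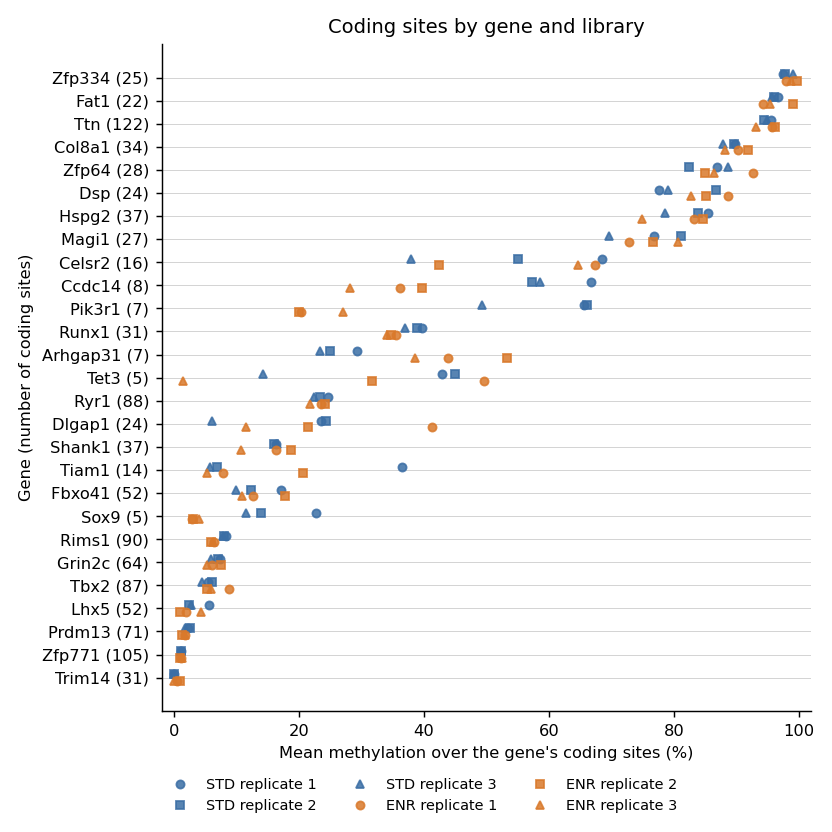
Mean methylation in percent (horizontal axis) over the far coding sites of 27 named genes (vertical axis, number of sites in brackets). Each point is 1 library, blue for STD and orange for ENR, with a marker for each replicate number. Most genes hold their 6 libraries close together, Tet3, Dlgap1, Tiam1 and Celsr2 spread widely within groups, and in Pik3r1 the ENR points (20% to 27.0%) lie below the STD points (49.2% to 66.2%).

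Some stretches went against the density trend. Of the dense sites 107, in 16 genes, had a mean over 80%. Pard6b, a subunit of the cell polarity complex, gave 27 of them with a mean of 93.4%, Fam50b 23 with 96.2%, and Shroom3, an actin-binding regulator of apical constriction, 11 with 95.9%. All 27 sites of Pard6b met the island-like criterion, with CpGs at 0.881 of the expected number, and its run of 32 sites read 92.1%, 91.2% and 92.1% in STD and 93.1%, 92.8% and 90.8% in ENR. Conversely 242 sparse sites in 141 genes were under 5%. Lgr6, F12, Proser2, Prrt4 and Spen gave 5 each. Of the 242 sites 90 (37.2%) met the island-like criterion. These genes were picked out after their values were seen.

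The second question was whether ENR housing changed methylation at these sites. The mean level differed by -0.817 percentage points between ENR and STD, which is smaller than both groups' SDs (exact permutation test over libraries, two-sided, p = 0.7, where 3 mice against 3 cannot go below 0.1). Leaving out ENR replicate 3 turned the difference to 0.756 percentage points. Medians over sites gave -3.65 and the mean of gene means -1.29 percentage points (exact permutation p = 0.6 each). In the 6 density classes ENR minus STD ran from -1.61 to -0.0911 percentage points, and no class passed the test (exact permutation p from 0.2 to 1, adjusted p from 0.72 to 1). The sparse minus dense contrast was 58.2 ± 1.71 percentage points in the STD group and 57.2 ± 3.06 in the ENR group (SD, n = 3 each), a difference of -0.994 (exact permutation p = 0.7), which turned to 0.767 without ENR replicate 3 and was -0.270 without STD replicate 1.

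Of the coding sites, 18160 varied between libraries and were tested together with all 615152 varying sites of the table. With limma and Benjamini-Hochberg adjustment, 0 coding sites passed an adjusted p under 0.05 with a difference over 25 percentage points, against a background of 0% of all sites, and the smallest adjusted p was 0.852. At an unadjusted p under 0.05 there were 668 coding sites (3.68%), against 2.68% of all varying sites. By size alone, 828 coding sites (4.10%) differed by over 25 points, against 1.94% of all sites. The count was 1476 without ENR replicate 1 and 1277 without ENR replicate 2. Most sites of the table lie near 0%, where such a difference is impossible. Of sites whose mean allowed it the shares were 10.2% for coding sites and 9.01% for all. ENR was lower at 489 (2.42% of coding sites, against 1.23% of all sites) and higher at 339 (1.68%, against 0.706% of all sites), and the lower share was 59.1% here and 63.6% over all sites. The groups did not overlap at 337 (1.67%, against 0.810% of all sites). The balance of directions hung on single mice, since 41.4% were lower without ENR replicate 3, 52.2% without STD replicate 1 and 72.3% without STD replicate 3. By density, the share over 25 points was 6.50% with 0 to 2 neighbours, 2.70% with 11 to 20 and 0% with over 40. Of sites whose mean allowed such a difference the shares were 13.1% and 8.09% in the first and the fourth class, and in the densest class only 7 sites allowed it.

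Gene means were tested in the same way. Of 1327 genes, 0 passed an adjusted p under 0.05 in limma (0% called, smallest adjusted p = 0.796), and 55 (4.14%) had an unadjusted p under 0.05, 35 of them lower in ENR. Without ENR replicate 3, 36 of 67 such genes were higher in ENR, and without STD replicate 1, 30 of 54. Groups did not overlap for 128 genes (9.65%), and 741 (55.8%) had the lower mean in ENR, with a median difference of -0.430 percentage points. These shares are over every gene tested, so they are the background itself, and nothing is read from them. Across the lists 0 genes passed the adjusted test, and 1 had an unadjusted p under 0.05, Sox9. Among developmental factors 12 genes were lower and 7 higher in ENR with a median of -0.528, among glutamatergic synapse genes 6 and 4 with -0.286, and among collagens 11 and 7 with -1.03 percentage points. Matrix glycoproteins had 4 lower and 5 higher with a median of 1.25, atypical cadherins 2 and 4 with 0.116, and markers of other cells 3 and 3 with -0.0277 percentage points. Calcium channel subunits had 5 lower and 2 higher with a median of -0.968, and their list means did not overlap, with 40.6%, 38.6% and 40.02% in STD and 35.2%, 38.3% and 35.4% in ENR. That difference was not tested, and 3 mice against 3 cannot go below an exact permutation p of 0.1. It was the only list whose means did not overlap. Cacna1i held 21 of its 105 sites, with ENR minus STD at -8.6 percentage points. Of the remaining lists, the genes discussed in the study had 3 lower and 0 higher with -1.76, methylation enzymes 2 and 0 with -5.99, and granule neuron markers 0 and 1 with 4.31 percentage points.

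**Figure D5:**
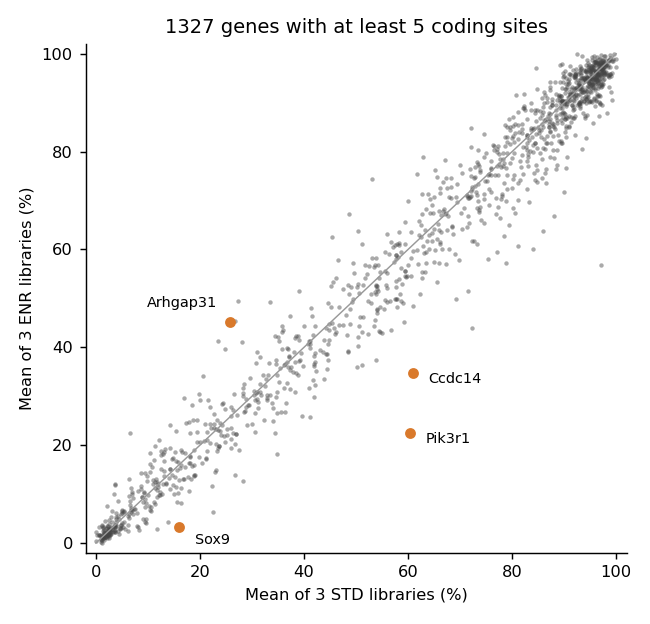
Mean methylation in percent of the 3 ENR libraries (vertical axis) against that of the 3 STD libraries (horizontal axis) for 1327 genes with at least 5 far coding sites, 1 point a gene, with the line of equality in grey and 4 of the 6 genes named by their limma p in orange. Points follow the line from 0% to 100%, and Pik3r1 and Ccdc14 lie below it by 37.9 and 26.2 percentage points.

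The genes with the lowest unadjusted p among those whose groups did not overlap are given as values, since none passed the adjustment. In Pik3r1, which encodes the regulatory subunit p85 alpha of phosphoinositide 3-kinase, 7 sites of an exon at chr13:101757337-101757441 read 65.6%, 66.2% and 49.2% in STD and 20.3%, 20% and 27.0% in ENR. The means were 60.3% ± 9.63 and 22.4% ± 3.92 (SD, n = 3 each), a difference of -37.9 percentage points. The limma p was 6e-04 and the limma adjusted p 0.796. All 7 sites were lower in ENR, 3 of them by over 25 points. The 4 other measured cytosines within 2000 bp had 61.6% ± 13.0 in STD and 51.4% ± 14.8 in ENR (SD, n = 3 each). The CpGs are those in capitals in the last window above.

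Ccdc14, a protein of centriolar satellites, had 8 sites at 66.8%, 57.3% and 58.5% in STD and 36.1%, 39.7% and 28.2% in ENR, and all 8 were lower in ENR (limma adjusted p = 0.975). Sox9, a transcription factor of cartilage and glia, had 5 sites at 22.7%, 13.96% and 11.5% in STD and 2.91%, 3.03% and 3.91% in ENR (limma adjusted p = 0.975). Around Sox9, 31 other measured cytosines within 2000 bp had 2.92% ± 1.40 and 2.07% ± 1.70 (SD, n = 3 each), levels too low for a fall of that size. In the other direction Arhgap31, a GTPase-activating protein for Rac and Cdc42, had 7 sites at 29.2%, 24.99% and 23.3% in STD and 43.8%, 53.3% and 38.6% in ENR (limma adjusted p = 0.979). At 3 of the Arhgap31 sites, chr16:38636898-38636947, ENR replicate 2 averaged 45.5% and every other library 0%. Sdr42e1 had 93.5% ± 1.43 and 99.5% ± 0.834, and Zfp648 10.3% ± 1.97 and 18.4% ± 2.68, in STD and ENR (SD, n = 3 each), neither with an adjusted p under 0.05. Of the 14 Zfp648 sites 9 were higher and 5 lower in ENR. The gene farthest from the line of equality was Sh3bp4, with 95.8%, 95.3% and 100% in STD and 89.7%, 75.6% and 5% in ENR. A single library carried it, and Sh3bp4 was named after its values were seen.

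Single sites were named by the same rule. A site of Cacna1i, a T-type calcium channel subunit, at position 80372305 of chromosome 15 read 89.2%, 100% and 100% in STD and 43.2%, 37.5% and 45.5% in ENR. Of its 7 neighbours within 100 bp only 2 shared the direction, and their mean difference was 6.70 percentage points upward. A site of Cilp2, a cartilage matrix protein, at position 69884378 of chromosome 8 read 32.6%, 11.1% and 33.3% in STD and 100% in each ENR library, and here all 5 neighbours shared the direction with a mean of 18.01 points. Sites of 4930562C15Rik and Meltf were lower, with ENR minus STD at -36.7 and -46.0 points, and 0 of 1 and 1 of 4 neighbours followed. Sites of Slc25a15, the mitochondrial ornithine carrier, and Baiap2, an actin regulator of dendritic spines, were higher by 44.9 and 34.4 points, and 4 of 10 and 0 of 1 neighbours followed. The limma adjusted p of each of these sites was 0.852. Of genes with a difference over 25 points at any site (585 genes), 26 had at least 4 such sites. In 6 of the 26 all of these sites were lower in ENR, in 6 all were higher and in 14 they went both ways. Apc2 led with 9, of which 4 were lower and 5 higher, followed by Disp3 with 7, of which 4 were lower and 3 higher, and Ildr1 with 6, all lower.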

How the data were processed

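Micro-dissected dentate gyrus of 3 STD and 3 ENR mice was profiled by RRBS. Per the submitters' processing notes, the authors trimmed reads with Trim Galore 0.4.0 and cutadapt 1.8.1, aligned them to mm10 with Bismark 0.16.1 and used methylKit 1.5.2 to keep cytosines with at least 10 reads, to remove the most deeply covered and to unite libraries (the study's methods name later versions of Trim Galore and Bismark). The deposited values are the percent of methylated reads per cytosine and library, without read numbers, so sites of any depth weigh alike and no interval is given. No values were missing and 0 value columns were left unused.

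Sites were annotated with GENCODE M21 on GRCm38.p6 (Python 3.11.15, pandas 2.3.3, pysam 0.24.0), and sequences come from the RefSeq copy of that build. Library means were compared by exact permutation (housing) or exact sign-flips (within libraries), with Benjamini-Hochberg adjustment over 13 comparisons. Sites and gene means (at least 5 sites) went into limma 3.58.1 models (R 4.3.3, lmFit and eBayes with trend). Procedures were tested on simulated data, where estimates were recovered but the per-site limma test, adjusted over the whole table, missed large differences planted at few sites, so an absence of called sites does not show an absence of differences. The definition, gene lists and tests were chosen with earlier results of these data known. Named genes were those with the lowest (6) and highest (3) means among genes with at least 10 sites, the 5 with the most sites, the 3 lowest limma p in each direction among non-overlapping genes and sites, the 4 largest and 2 smallest sparse minus dense differences, and up to 4 per list by number of sites. Alternatives covered averaging, strands, distance, window, normalization, scale, the replicate number as a block and each library left out. Coding sites and the genic sequence set against them were autosomal. The limma site test and the shares over all sites used all 890041 measured cytosines, of which 866851 were autosomal.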

Additional observations from a re-analysis of the deposited data

How the results depend on the processing

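The density contrast and the differences from introns, untranslated exons and near-start coding sites kept their direction under every alternative run. Leaving out single libraries leaves 5 sign-flips, which cannot go below an exact p of 0.0625, so these calls were lost by construction. The ranges were 57.3 to 58.5 percentage points for sparse minus dense, 17.2 to 18.6 within genes, 13.9 to 14.1 for coding minus intron, 15.9 to 16.0 for coding minus untranslated exon, 25.1 to 25.5 for far minus near coding and -2.27 to -2.05 for codon position 2 minus 3. Without both libraries numbered 3 (chosen after seeing the data) sparse minus dense was 59.0 (exact sign-flip permutation p = 0.125, the smallest that 4 allow). Within the same gene and density class (also chosen after seeing the data) codon position 2 minus 3 turned to 0.132, and the cause was not tested. The ENR minus STD level ran from -1.77 to 0.756 percentage points and the ENR minus STD difference of the density contrast from -1.99 to 0.767 when single libraries were left out, both turning positive without ENR replicate 3. Medians over sites gave an ENR minus STD level of -3.65 and quantile normalization -0.169.

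Coding sites differing by over 25 points numbered 828, 1621 at a limit of 20 points, 98 at 40 points, and 1010 to 1476 with a library left out, of which the counts without ENR replicate 1 (1476) and ENR replicate 2 (1277) were over 1.5 times the full count. Limma called 0 sites and 0 genes in all alternatives. With the replicate number as a block, 0 sites and 0 genes were called, and the sign-flip over pairs gave -0.817 for the level and -0.994 for the density contrast (exact p = 0.5 each, smallest possible 0.25). Deviations of same-numbered libraries correlated at 0.0285, 0.0301 and 0.0992 across coding sites, and not every library correlated best with its own number, so the numbers were not taken to pair mice. Depth per site was unknown, 3 mice per group limited the tests, and cell composition was not measured.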

Other observations

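Genes with zinc finger symbols (Zfp, Zscan, Zkscan or Zbtb followed by a number) were singled out after the values were seen, because several led the list of highly methylated genes. They held 1153 far coding sites in 101 genes, with a mean level of 61.8% ± 0.954 (SD over 6 libraries). With 3 to 5 neighbours their sites had 84.97% against 67.9% in other genes, with 11 to 20 neighbours 60.2% against 36.8%, and with 21 to 40 neighbours 31.5% against 13.1%. Libraries ranged from 59.2% to 62.5% and from 35.0% to 37.7% in the class of 11 to 20 neighbours. With over 40 neighbours the order was the other way, 0.965% against 2.52%, where zinc finger sites came from 2 genes. Of 66 such genes with at least 5 sites, 44 averaged over 80% and 7 under 20%. These values are descriptions and were not tested.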
